A study of Ovis aries with 9 samples.

Results

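Interferon-stimulated genes were described in hypothalamus RNA of Dolang ewes by 9 members, ISG15, MX1, MX2, IFI6, RSAD2, IFIH1, IRF7, IFI44 and IFIT2. A member was found by its RefSeq symbol, and the FPKM of its NM_ and XM_ transcripts were summed in each library. FPKM are fragments scaled by transcript length and by how many fragments of that library were mapped. These 9 genes were part of 21284 genes with such a transcript, and all 9 had at least 1. The libraries came from 3 prepubertal ewes aged 120 days, 3 pubertal ewes aged 130 days that showed their first signs of estrus, and 3 postpubertal ewes aged 150 days, 1 library per ewe and without any treatment. The libraries are named by stage and replicate number (Prepuberty 1 to Postpuberty 3).

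Interferons are cytokines that cells release when they sense virus, and that T and NK cells release on activation. They bind receptors on neighbouring cells, and the JAK kinases at these receptors activate transcription factors, among them STAT2 with IRF9, that act on genes with interferon response elements. The genes that respond encode proteins that block steps of viral growth, sensors of viral nucleic acid and transcription factors that amplify the response. In the brain they are kept at low levels in the absence of infection, and in ruminants they are also known as the genes that the conceptus signal interferon tau induces in the uterus.

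The libraries were not alike before any member was examined. In 8 of them the total over all transcripts was 359588 to 398109 FPKM, with between 12985 and 13687 genes at an FPKM of at least 0.5. Puberty 2 stood apart with a total of 599726 FPKM and 10970 genes, and 839 genes of the 13696 tested were listed at 0 in that library alone. Correlations therefore leave out Puberty 2, and the main counts and comparisons are given with and without it. Puberty 3 stood apart in markers of the choroid plexus, with a sum of 7624 FPKM beside 9.21 to 728 in the other 8 libraries, nearly all of it from TTR (7594). The defining markers of the hypothalamus were also low. Of its 10 markers, PMCH, AGRP, GHRH, SIX6, RAX and NKX2-1 did not pass an FPKM of 0.699 in any of the 9 libraries. OXT, AVP, HCRT and POMC did not pass 4.81, 10.4, 1.68 and 22.4. The labelled tissue is therefore used here as a label, and the part of the hypothalamus that was sampled was not stated in the sources used here.

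The most abundant member was IFI6, which encodes a small membrane protein of the endoplasmic reticulum and mitochondria that restrains flaviviruses (chromosome 2, 239391980 to 239395690 of ARS-UI_Ramb_v3.0, 1 transcript). Its FPKM were 408, 35.7 and 116 at prepuberty, 42.7, 69.8 and 212 at puberty, and 53.6, 51.7 and 331 at postpuberty. The prepuberty mean was 187 ± 196 (SD, n = 3), the puberty mean 108 ± 91.0 and the postpuberty mean 146 ± 161. Prepuberty 1 and Postpuberty 3 were high, Puberty 3 was between them and the rest, and the values of the 3 stages overlapped.

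ISG15 encodes a ubiquitin-like protein that is joined to other proteins and is also secreted (chromosome 12, 50782014 to 50783069, 1 transcript). It had an FPKM of 58.5, 7.72 and 15.1 at prepuberty, 7.99, 10.6 and 18.8 at puberty, and 6.63, 10.2 and 88.2 at postpuberty. The stage means were 27.1 ± 27.4, 12.5 ± 5.66 and 35.0 ± 46.1 (SD, n = 3 each). As for IFI6, 1 animal of prepuberty and 1 of postpuberty carried most of each mean, and the stages overlapped. The FPKM of ISG15 in Postpuberty 3 was 8.68 times that of the next postpuberty library, and in Prepuberty 1 it was 3.88 times that of the next prepuberty library.

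MX1 and MX2 are neighbours on chromosome 1 (262343364 to 262378059 and 262303074 to 262335698, 1 transcript each) and encode dynamin-like GTPases that trap viral components. MX2 had an FPKM of 9.09, 0.976 and 1.73 at prepuberty, 0.825, 0 and 0.454 at puberty, and 0.261, 1.32 and 15.5 at postpuberty. The stage means of MX2 were 3.93 ± 4.48, 0.426 ± 0.413 and 5.69 ± 8.50 (SD, n = 3 each). The 3 puberty libraries lay below the 3 prepuberty libraries, while the postpuberty libraries overlapped with both. MX1 was listed at 0 in each of the 9 libraries. A listed 0 can be a failed estimate, and reads of MX1 in transcripts that StringTie assembled without a RefSeq name were not looked for, so no level is given for this gene. It did not pass the filter used for the tests (a mean FPKM over the 9 libraries of at least 0.5), which the other 8 members passed.

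RSAD2 encodes viperin, an enzyme that makes a chain-terminating nucleotide against viral polymerases (chromosome 3, 16737777 to 16756304, 1 transcript). Its FPKM were 5.09, 1.05 and 1.63 at prepuberty, 1.54, 0.213 and 2.13 at puberty, and 0.512, 1.12 and 10.6 at postpuberty. IFIT2 encodes a protein with tetratricopeptide repeats that acts on translation of viral RNA (chromosome 22, 10850972 to 10858816, 3 transcripts). It had an FPKM of 15.6, 7.85 and 10.0 at prepuberty, 8.12, 1.51 and 9.40 at puberty, and 8.61, 6.72 and 23.8 at postpuberty. Both genes were highest in Postpuberty 3, next highest in Prepuberty 1 and lowest in Puberty 2, and their stages overlapped. IFIT2 had the narrowest range of the 8 genes over the libraries other than Puberty 2, where its highest FPKM was 3.54 times its lowest. The widest was that of MX2, at 59.3 times.

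IFIH1 encodes MDA5, a cytoplasmic sensor of long double-stranded RNA (chromosome 2, 147486580 to 147546647, 1 transcript). It had an FPKM of 7.47, 1.73 and 2.13 at prepuberty, 2.11, 0.778 and 3.21 at puberty, and 1.94, 1.73 and 14.4 at postpuberty. IRF7 encodes the transcription factor that drives interferon alpha genes once sensors are engaged (chromosome 21, 47074774 to 47077834, 2 transcripts). Its FPKM were 5.72, 2.42 and 2.99 at prepuberty, 2.36, 0 and 2.47 at puberty, and 0.620, 0.989 and 13.1 at postpuberty. IRF7 was thus listed at 0 in Puberty 2, as was MX2. The FPKM of IRF7 in Postpuberty 3 was 13.2 times that of the next library of that stage.

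IFI44 encodes a cytoplasmic protein whose role is less well defined (chromosome 1, 55103734 to 55169614, 3 transcripts). Its FPKM were 4.17, 1.11 and 2.01 at prepuberty, 1.24, 0.745 and 2.16 at puberty, and 0.671, 1.30 and 8.36 at postpuberty. The stage means were 2.43 ± 1.57, 1.38 ± 0.721 and 3.44 ± 4.27 (SD, n = 3 each). The order of the 8 libraries other than Puberty 2 was the same for IFI44 and ISG15 (Spearman's rho 1), and the stages overlapped.

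**Figure D1:**
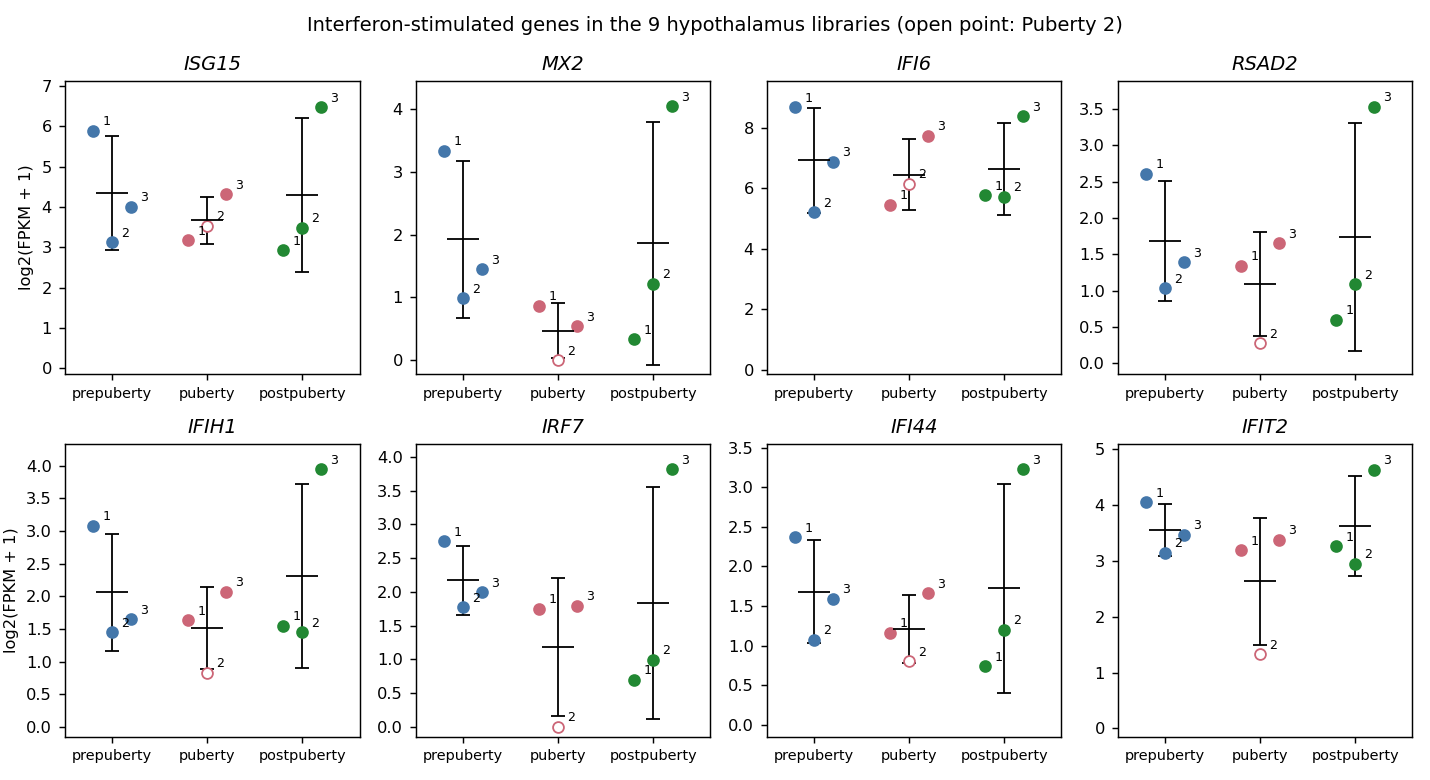
Expression of the 8 interferon-stimulated genes that passed the filter, as log2(FPKM + 1) on the vertical axis, by stage on the horizontal axis. Points are single libraries with their replicate number, the open point is Puberty 2, and bars are the mean ± SD of 3 libraries. Prepuberty 1 and Postpuberty 3 are the highest points in each of the 8 panels.

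The members shared an order of libraries that crossed the stages. In 8 of the 8 genes tested the pair of libraries with the highest FPKM was Postpuberty 3 and Prepuberty 1. Of all genes tested, 7.53% had this pair at the top of the 9 libraries, and 10.4% had it at the top of the 8 libraries without Puberty 2. Postpuberty 3 was the highest library for 7 of the 8 genes and Prepuberty 1 for the other, IFI6, whose FPKM in Postpuberty 3 was 0.812 times that in Prepuberty 1. For the other 7 this ratio was between 1.51 (ISG15) and 2.28 (IRF7). The next library in order was Puberty 3 for 5 genes (ISG15, IFI6, RSAD2, IFIH1 and IFI44) and Prepuberty 3 for 3 (MX2, IRF7 and IFIT2). The part of the choroid plexus signal of Puberty 3 in this place was not tested. Puberty 2 was the lowest of the 9 libraries for 5 genes, but not for ISG15, IFI6 and IFI44. All 8 genes kept the same pair at the top after upper quartile scaling, equal totals, quantile normalization, or with only the highest transcript of a gene. Each of the 8 also had a mean of at least 0.5 FPKM over the 7 libraries outside this pair.

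Agreement between the members was measured by Pearson's r of log2(FPKM + 1) for each of the 28 pairs of the 8 genes over the 8 libraries without Puberty 2. The median r was 0.930, from 0.747 (MX2 with IFI6) to 0.991 (RSAD2 with IFI44), and 21 of the 28 pairs reached 0.9. Over all pairs of the 13696 genes tested the median r was 0.0372 and 0.700% reached 0.9. Spearman's rho had a median of 0.833, from 0.5 to 1. The exact two-sided permutation p over the 8 libraries, not adjusted for the 28 pairs, was between 2.48e-05 and 0.0268 for r, and between 4.96e-05 and 0.216 for rho, where 23 of the 28 pairs had a p below 0.05. These p-values describe the pairs and support nothing further, since the members were named with these data known. With all 9 libraries the median r was 0.908 (0.602 to 0.985), beside 0.133 for all pairs of genes. Subtracting the stage means, again over 8 libraries, gave a median of 0.949 (0.752 to 0.993).

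The 2 libraries farthest from the median of the members' mean z-score were Postpuberty 3 and Prepuberty 1. Over the 6 libraries that remained without them, the median r of the 28 pairs was 0.588 (from -0.373 to 0.956), 25 pairs were above 0 and 3 reached 0.9. For all pairs of genes the median r over these 6 libraries was 0.0533, and 1.75% reached 0.9. The agreement thus rested in part on these 2 libraries. The pairs that remained above 0.9 were ISG15 with IFI44 (0.956), RSAD2 with IFI44 (0.930) and ISG15 with IFI6 (0.926). MX2 was the member that followed the others least, with a median r of 0.249 with the other 7 genes and a negative r with IFIH1 (-0.373), IFIT2 (-0.102) and IFI6 (-0.074). For ISG15 the median r with the other 7 genes was 0.760 and for IFI44 it was 0.731.

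**Figure D2:**
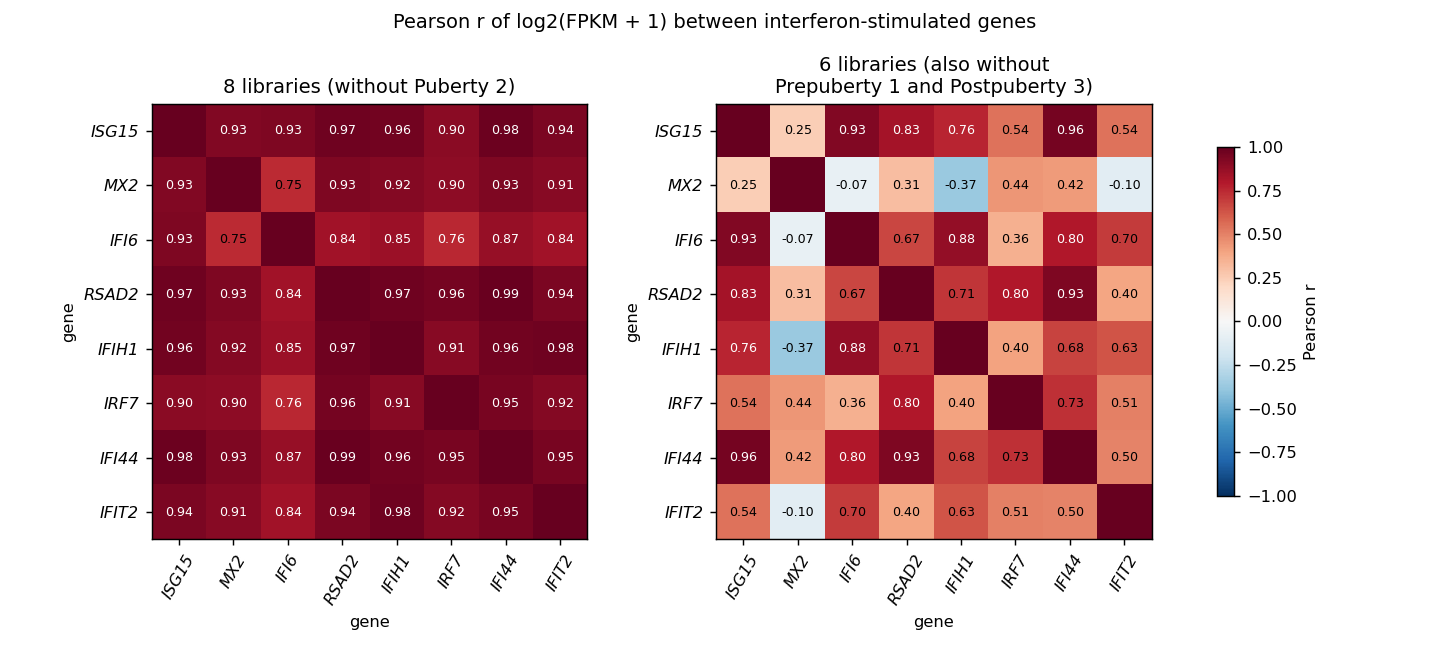
Pearson's r of log2(FPKM + 1) between each pair of the 8 genes, over 8 libraries (left) and over the 6 libraries without Prepuberty 1 and Postpuberty 3 (right). Both axes list the genes and the colour and the printed number give r, which on the left is at least 0.747 in every pair and on the right runs from -0.373 to 0.956.

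Within a stage, the members varied more between animals than most genes did. The SD of log2(FPKM + 1) within stages, pooled over the 8 libraries without Puberty 2, had a median of 1.132 over the 8 members and of 0.290 over all 13696 genes tested. IFI6 had an SD of 1.63, above that of 99.4% of genes, ISG15 of 1.546 (99.2%) and MX2 of 1.46 (99.1%). RSAD2, IRF7, IFIH1 and IFI44 had an SD between 0.945 and 1.136, above 95.3% to 97.6% of genes. The least variable member was IFIT2, with 0.639 (85.9%). With Puberty 2 the medians were 1.15 for the members and 0.458 for all genes. The spread was not even over the stages. IRF7, RSAD2 and IFIH1 had an SD of 1.721, 1.572 and 1.411 at postpuberty, where Postpuberty 3 was their highest library. At prepuberty it was 0.511, 0.824 and 0.89. Only IFI6 had a larger SD at prepuberty (1.74) than at postpuberty (1.519). The pooled SD without Postpuberty 3 was not computed.

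**Figure D3:**
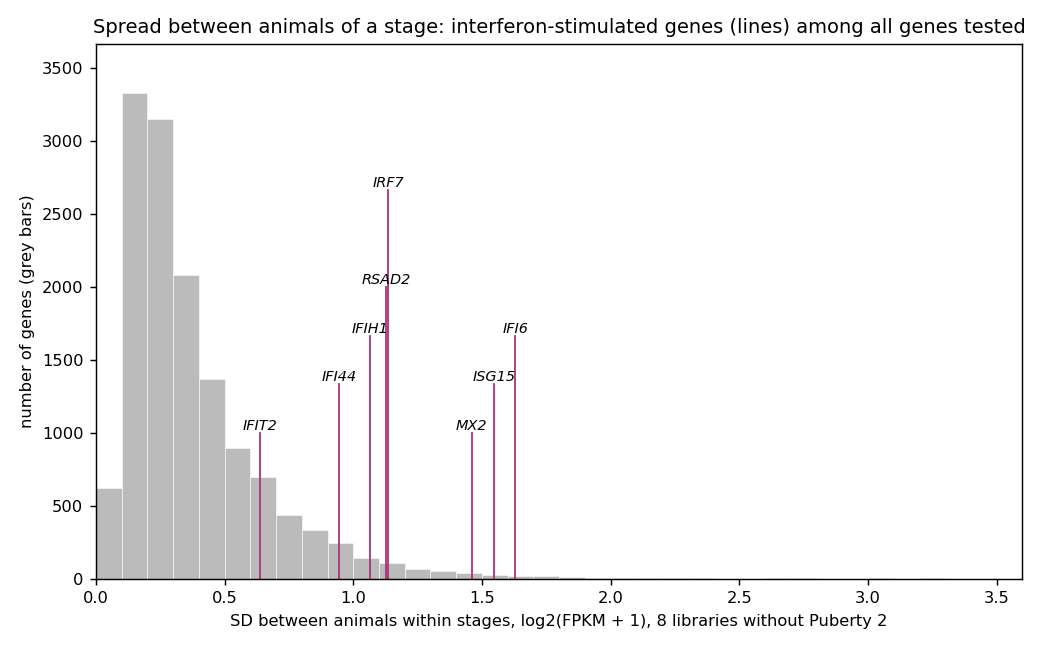
Number of genes (vertical axis, grey bars) by the SD of log2(FPKM + 1) between animals within stages (horizontal axis), over 8 libraries. Lines mark the 8 interferon-stimulated genes at their SD, from 0.639 (IFIT2) to 1.63 (IFI6), and the height of a line has no meaning.

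The stages were then compared, which is the question of the study design. The 3 comparisons share libraries, so each is given by its own values. At puberty relative to prepuberty, 0 of the 8 genes passed (limma on log2(FPKM + 1), with a log2 difference of 1 or more either way and a Benjamini-Hochberg adjusted p below 0.05 over all genes tested), as did 0% of all genes. The differences on the log2(FPKM + 1) scale, which understates those of low genes, were below 0 for all 8, with a median of -0.63 beside -0.15 for all genes. They ran from -0.47 ± 0.62 (SE) for IFI44 to -1.45 ± 0.92 for MX2, with adjusted p-values from 0.839 to 0.885 in limma. At an unadjusted p below 0.05 there were also 0 of the 8 genes, beside 1.64% of all genes. Without Puberty 2 the median was -0.30, beside 0.02 for all genes, and the range -0.18 to -1.22. Without Prepuberty 1 the median was -0.125, beside -0.128 for all genes, and ISG15 (0.11) and IFI6 (0.41) were above 0. All 8 stayed below 0 with larger medians without Prepuberty 2 (-1.158, beside -0.104 for all genes) and without Puberty 3 (-1.053, beside -0.262). With array quality weights (less weight for libraries that vary more) the differences ran from 0.05 for IFIH1 to -0.84 for MX2. RSAD2 was then at -0.02, IFIT2 at -0.26 and IRF7 at -0.30, while IFI6 was at -0.55 beside -0.47 in the main fit.

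Postpuberty relative to puberty also gave 0 genes of the 8 past the limma thresholds, beside 0% of all genes, and 0 at an unadjusted p below 0.05, beside 2.0% of all genes. The differences were above 0 for all 8, with a median of 0.65 beside 0.20 for all genes, from 0.18 ± 1.01 for IFI6 to 1.40 ± 0.92 for MX2 (SE). Their adjusted p-values in limma were between 0.783 and 0.948. Without Puberty 2 the median was 0.32, beside 0.03 for all genes. Without Postpuberty 3 it was -0.243, beside 0.17 for all genes, and the sign was negative for 6 of the 8 genes. For IFI6 the value was then -0.70 and for ISG15 -0.47. All 8 stayed above 0 with larger medians without Postpuberty 1 (1.201, beside 0.188 for all genes) and without Postpuberty 2 (1.053, beside 0.213). With array quality weights they ran from 0.52 for IRF7 to 1.62 for MX2, with ISG15 at 1.14, IFI6 at 0.62 and IFIT2 at 0.59.

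Postpuberty relative to prepuberty gave 0 of the 8 genes past the limma thresholds, beside 0% of all genes, and 0 at an unadjusted p below 0.05, beside 0.730%. The values lay between -0.34 ± 0.82 for IRF7 and 0.26 ± 0.72 for IFIH1 (SE), with a median of -0.001 beside 0.05 for all genes and adjusted p-values of 1 in limma, also without Puberty 2. They turned with single libraries: all 8 were below 0 without Prepuberty 2 (median -0.395, beside 0.0691 for all genes) and without Postpuberty 3 (median -0.986, beside 0.0394, with IRF7 at -1.33), and all 8 above 0 without Postpuberty 1 (0.583) or Postpuberty 2 (0.334). Without Prepuberty 1 the median was 0.555, and with array quality weights, which give less weight to libraries that vary more, it was 0.544 with all 8 above 0. All 8 genes had their lowest mean FPKM at puberty, and 7 had their highest at postpuberty (IFI6 at prepuberty). On the log2(FPKM + 1) scale, 4 of the 8 were higher at postpuberty than at prepuberty and 4 were lower. Of all genes tested, 57.6% had their lowest mean at puberty and 45.0% their highest at postpuberty, and without Puberty 2 39.7% and 42.4%, where the counts of the 8 members were again 8 and 7. Without Postpuberty 3 only MX2 and IFIT2 were lowest at puberty and 0 of the 8 highest at postpuberty, beside 53.7% and 42.5% of all genes, and without Prepuberty 1 it was 5 and 8 of the 8, beside 52.7% and 43.1%. Apart from MX2 between puberty and prepuberty, the libraries of stages next to each other in this order overlapped, and no difference passed the test.

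A count of libraries that do not overlap gave the same picture. Between puberty and prepuberty, 1 of the 8 genes (MX2, lower at puberty) had no overlap, beside 4.94% of all genes tested. Between postpuberty and puberty it was 0 of 8 beside 7.15%, and between postpuberty and prepuberty 0 of 8 beside 4.40%. Without Puberty 2, MX2 was again the 1 gene without overlap between puberty and prepuberty, beside 11.3% of all genes. Between postpuberty and puberty it was then 0 of 8 beside 13.7%. For 3 animals against 3 the smallest two-sided exact p is 0.1, so no pair of stages could pass at 0.05 by such a test. Over the 3 stages at once, the exact permutation test of the F statistic (all assignments of libraries to stages, smallest possible p 0.00357) gave p-values between 0.350 (MX2) and 0.886 (IFI6) for the 8 genes. Of all genes tested, 1.86% had an exact p below 0.05 and 0 passed after adjustment over all genes, which the smallest possible p passes only if many genes reach it. Without Puberty 2 the exact p-values of the 8 genes were between 0.661 and 0.989.

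**Figure D4:**
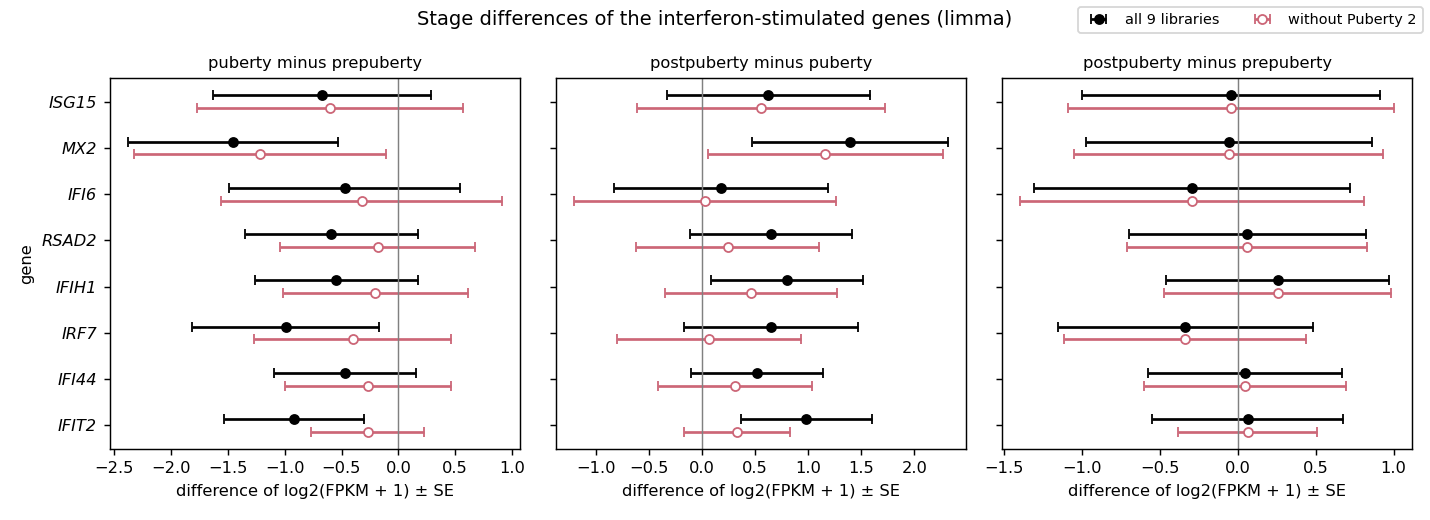
Differences between stages on the log2(FPKM + 1) scale (horizontal axis) for the 8 genes (vertical axis), with the standard error from limma as the bar. Filled points use all 9 libraries and open points leave out Puberty 2; none of the 8 genes passed the thresholds in any of the 3 comparisons.

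Other genes of the interferon pathway were taken from 8 lists with 107 symbols, of which 87 had a transcript and 80 passed the filter. Of these 80, 0 passed the limma thresholds in any comparison of stages and 0 had an unadjusted p below 0.05. In 57 of the 80 the 2 highest of the 9 libraries were Postpuberty 3 and Prepuberty 1, beside the 7.53% of all genes given above. Without Puberty 2 it was 62 of the 80, beside 10.4%, with 1 more of the JAK-STAT and IRF genes, 2 more of the other interferon-stimulated genes and 2 more of the MHC class I genes than in the counts over 9 libraries given below. TLR4, CGAS, ZBP1, ISG20, CXCL11 and SOCS3 reached the filter only through Prepuberty 1 and Postpuberty 3, which favours this order. Of the 74 genes with a mean of at least 0.5 FPKM over the other 7 libraries, 52 shared it, beside 6.77% of all genes chosen in that way, and 37 had an r of at least 0.9, beside 1.68%. Over the 8 libraries without Puberty 2, 41 of the 80 had a Pearson's r of at least 0.9 with the mean z-score of the members, beside 2.19% of all genes tested. For these 41, the r over the 6 libraries without Prepuberty 1 and Postpuberty 3 ran from 0.042 to 0.935. Their agreement thus also rested in part on these 2 libraries.

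The interferon genes themselves were near 0. IFNG, which encodes the interferon of T and NK cells, was at 0.269 FPKM in Postpuberty 3, 0.0916 in Prepuberty 1 and at most 0.0620 in the other 7 libraries. IFNE and IFNK did not pass 0.0681 FPKM in any library, and the other interferon genes of the list were not analysed here. Of the 5 receptor genes that passed the filter, 3 had Postpuberty 3 and Prepuberty 1 as the highest libraries. IFNAR1, a chain of the receptor for interferons alpha and beta, was at 16.5 FPKM in Prepuberty 1 and 15.5 in Postpuberty 3, and 3.33 to 14.1 in the other 7. IFNGR1, a chain of the receptor for interferon gamma, was at 56.9 and 38.2 FPKM in these libraries and between 24.2 and 41.7 in the others. IFNGR2 was at 32.3 and 25.6, and at 18.2 to 22.7 in the others. IL10RB was at 5.17 and 4.51, within the 2.73 to 5.19 of the others.

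Among the JAK-STAT and IRF genes, 7 of 11 had Postpuberty 3 and Prepuberty 1 as the highest libraries. JAK1, a kinase at the receptors, was not one of them (27.5 FPKM in Prepuberty 1 and 34.6 in Postpuberty 3, beside 26.8 to 36.3 in the other 6 libraries without Puberty 2, where it was at 1.44). STAT2, a partner of IRF9, was at 13.4 FPKM in Prepuberty 1 and 21.0 in Postpuberty 3, beside 8.76 to 11.3 in those 6. IRF8, a factor of myeloid cells, was at 22.5 and 17.2 beside 4.99 to 10.8. IRF2, which represses interferon response elements, was at 13.8 and 11.3 beside 7.37 to 8.90.

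Sensors and adaptors were mixed, with 7 of the 12 that passed the filter sharing the order. Of the 9 that also passed over the 7 libraries other than Prepuberty 1 and Postpuberty 3, 5 shared it. DHX58, a helicase related to IFIH1, was at 7.04 FPKM in Prepuberty 1 and 14.6 in Postpuberty 3, beside 0.467 to 3.69 in the other 6 libraries. MYD88, the adaptor of Toll-like receptors, was at 13.5 and 13.3 beside 3.78 to 7.68. The kinase gene TBK1 (6.90 and 7.63 FPKM, beside 6.75 to 9.28) and TRAF3 (4.84 and 5.94, beside 4.69 to 6.37), which encode shared parts of the signal from sensors to interferon genes, stayed within the range of the other 6.

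Genes of ISG15 conjugation shared the order in 5 of 5. The activating enzyme gene UBA7 was at 6.56 FPKM in Prepuberty 1 and 20.3 in Postpuberty 3, beside 1.31 to 2.59 in the other 6 libraries. The conjugating enzyme gene UBE2L6 was at 17.5 and 30.2 beside 4.60 to 8.12, and USP18, which removes ISG15 and restrains the receptor, at 4.75 and 10.5 beside 1.06 to 2.50. The ligase gene HERC5 was at 4.46 and 5.55 beside 2.31 to 4.20. Negative regulators shared the order in 3 of 7, and in 2 of the 6 that also passed the filter over the 7 libraries other than Prepuberty 1 and Postpuberty 3. PTPN6, a phosphatase of blood cells, was at 13.2 and 18.0 FPKM beside 2.88 to 6.22, whereas PTPN11 (44.8 and 37.7 beside 32.7 to 54.7), PTPN2 (10.3 and 10.3 beside 6.95 to 11.2) and PIAS4 (7.92 and 8.32 beside 6.0 to 8.73) were within the range of the other 6.

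Of 31 other interferon-stimulated genes that passed the filter, 25 shared the order and 22 had an r of at least 0.9 with the members' mean z-score. Of the 29 that also passed over the 7 libraries other than Prepuberty 1 and Postpuberty 3, it was 23 and 20. CXCL10, a chemokine that attracts T cells, was at 37.6 FPKM in Prepuberty 1 and 71.3 in Postpuberty 3, beside 1.57 to 7.89 in the other 6 libraries. LGALS3BP, a secreted glycoprotein, was at 42.8 and 77.7 beside 17.4 to 33.9. IFITM3, which blocks fusion of viruses, had its highest FPKM in Puberty 2 (46.8), and was at 39.7 and 35.9 in the 2 libraries beside 9.51 to 25.5. ADAR, an editor of double-stranded RNA, was at 13.4 and 23.5 beside 11.1 to 19.8, and was listed at 0 in Puberty 2.

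Genes of MHC class I presentation shared the order in 7 of 9, and all 9 had an r of at least 0.9 with the members' mean z-score. Over the 6 libraries without Prepuberty 1 and Postpuberty 3, the r of these genes was between 0.270 and 0.914. B2M, the light chain of class I molecules, was at 657 FPKM in Prepuberty 1 and 1508 in Postpuberty 3, beside 109 to 289 in the other 6 libraries and 148 in Puberty 2. The immunoproteasome gene PSMB9 was at 47.5 and 87.2 beside 6.13 to 20.5, and TAP2, a subunit of the peptide transporter, at 30.4 and 52.2 beside 13.8 to 20.9. PSMB10 was at 42.9 and 56.7 beside 23.2 to 34.6, with its highest FPKM, 129.6, in Puberty 2.

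**Figure D5:**
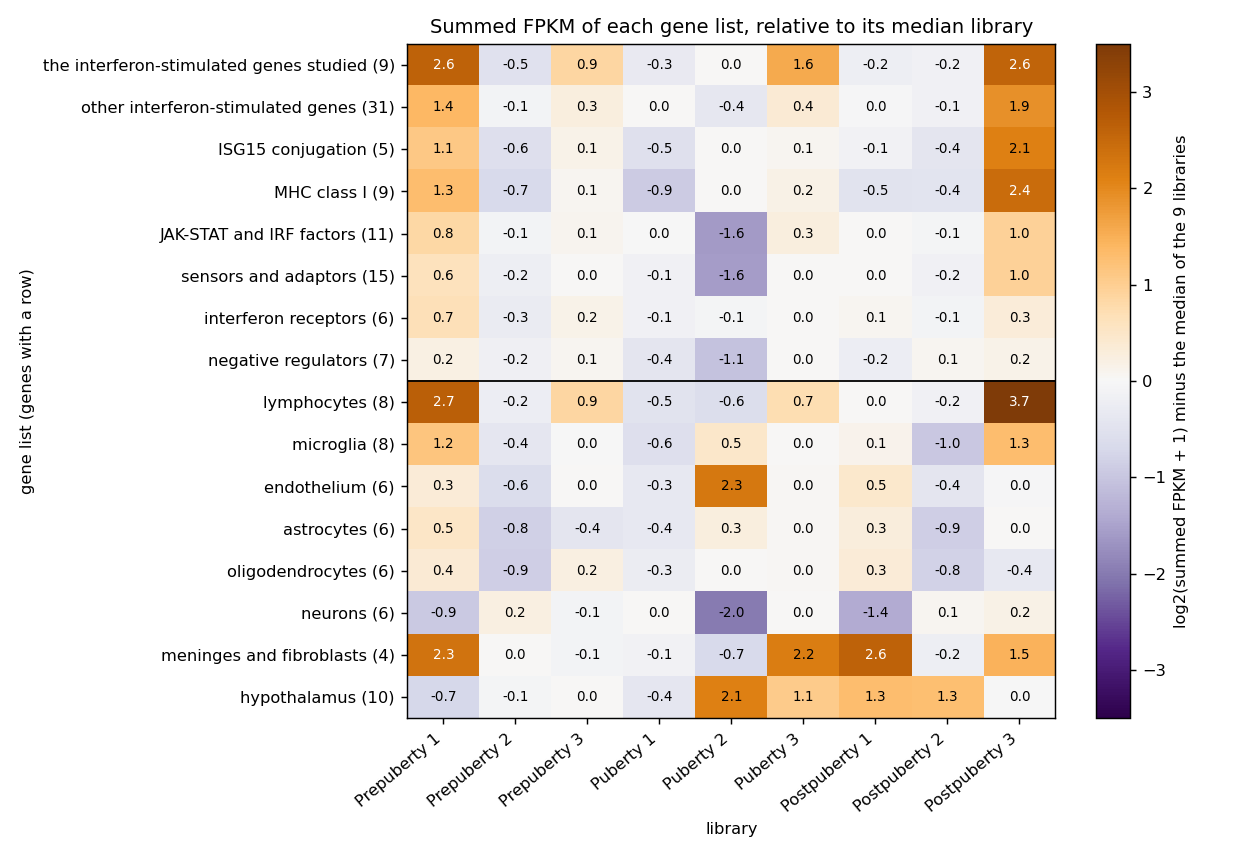
Summed FPKM of each gene list (rows, with the number of genes that had a transcript) in each library (columns), as the log2 of the sum + 1 minus the median of the 9 libraries. Rows above the line are interferon lists and rows below are markers of cell types. Prepuberty 1 and Postpuberty 3 are the highest columns for the members (2.604 and 2.579) and for lymphocytes (2.67 and 3.71). The sum of the members is mostly IFI6 (408 of 514 FPKM in Prepuberty 1 and 331 of 505 in Postpuberty 3). The other 7 members that passed the filter were highest in Postpuberty 3.

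Markers of lymphocytes moved with the members. In bulk RNA, more cells of a type and more RNA per cell cannot be told apart. The 8 lymphocyte markers (CD3E, CD3D, CD2, CD8A, MS4A1, CD79A, CD79B and NKG7) summed to 31.4 FPKM in Prepuberty 1 and 65.4 in Postpuberty 3, beside 2.66 to 8.30 in the other 6 libraries and 2.41 in Puberty 2. By stage the range of the sum was 3.34 to 31.4 at prepuberty, 2.41 to 7.34 at puberty and 3.57 to 65.4 at postpuberty. Of the 8 markers, 6 passed the filter, but CD8A and CD79A did so only through these 2 libraries. The 4 that also passed over the other 7 libraries shared the order and had an r of at least 0.9 with the members' mean z-score. Over the 6 libraries without Prepuberty 1, Postpuberty 3 and Puberty 2, the r of these 4 was between 0.633 (NKG7) and 0.784 (CD3E). CD3E, a chain of the T cell receptor complex, was at 8.50 and 16.8 FPKM beside 0.690 to 2.10, and the B cell gene CD79A at 3.19 and 10.8 beside 0.137 to 0.478. Only CD8A was at 0 in a library, Puberty 2. The part of lymphocytes in the result of the members was not tested.

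The 8 microglia markers summed to 437 FPKM in Prepuberty 1 and 482 in Postpuberty 3, beside 98.9 to 215 in the other 6 libraries and 273 in Puberty 2, and 4 of the 8 shared the order. These were the complement genes C1QA, C1QB and C1QC and the receptor gene CX3CR1. Without Puberty 2 it was 5 of the 8, with AIF1, a calcium-binding protein of macrophages, added (41.3 and 33.5 FPKM beside 13.1 to 23.6, and 56.7 in Puberty 2). The homeostatic microglia genes TMEM119 (19.0 and 12.9 FPKM beside 8.76 to 24.5) and P2RY12 (21.3 and 6.85 beside 5.60 to 19.8) and the growth factor receptor gene CSF1R (93.1 and 46.0 beside 21.3 to 53.1) did not share it. Their part in the result was not tested. Of the markers of neurons, astrocytes, oligodendrocytes and endothelium, 6 genes each, 0 shared the order. Some went the other way. The astrocyte gene SLC1A2 was at 32.8 FPKM in Prepuberty 1 and 23.1 in Postpuberty 3, beside 33.6 to 76.0 in the other 6 libraries. SLC1A3 was at 138 and 95.0 beside 150.3 to 217, and the neuron gene SYT1 at 17.5 and 32.2 beside 34.1 to 117. In Puberty 2 these genes were at 0.00353, 98.0 and 3.13. The endothelium markers summed to 172 and 132 FPKM in the 2 libraries beside 87.4 to 186 in the other 6 and 653 in Puberty 2. Nearly all of the sum in Puberty 2 came from CLDN5 (624). VWF (20.0) was also highest there, but PECAM1 (2.94), CDH5 (1.91), FLT1 (3.80) and TIE1 (0) were at their lowest. The neuron markers summed to 550 and 1193 beside 405 to 1241, and 269 in Puberty 2. Markers of meninges and fibroblasts summed to 124 and 67.3 beside 20.5 to 151, and 14.1 in Puberty 2. The astrocyte markers summed to 7141 FPKM in Prepuberty 1, above the 2767 to 6136 of the other 6, and to 5058 in Postpuberty 3 and 6105 in Puberty 2. The sum in Prepuberty 1 was mostly GFAP (6624). The oligodendrocyte markers summed to 14353 and 8753 beside 6204 to 14146, and 11196 in Puberty 2. The markers of granulocytes and monocytes were low but higher in the 2 libraries, at a sum of 1.28 and 1.46 FPKM beside 0.142 to 0.790 in the other 6 and 1.13 in Puberty 2. Red cell markers summed to 1.43 and 5.46 FPKM beside 0.292 to 1.55, and 10.7 in Puberty 2. Choroid plexus markers summed to 340.3 and 728 FPKM, beside 7624 in Puberty 3, 256 in Puberty 1, 555 in Puberty 2 and 9.21 to 51.2 in the other 4, so that without Puberty 2 their 3 highest libraries were those of the 5 members named above with Puberty 3 as the next library. Ependyma markers summed to 24.6 and 9.21 beside 8.94 to 24.6, and pituitary markers to 5.72 and 14.3 beside 0.125 to 215, and none of the markers of these 4 lists that passed the filter shared the order. The part of these cell types in the result was not tested.

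The 10 genes outside the members whose pattern was most like their mean z-score over the 8 libraries had a Pearson's r between 0.984 and 0.995. They were ZNFX1 (0.995), IL2RG (0.991), IL2RB (0.991), LOC101112639 (0.990), LOC101114285 (0.989), CXCR6 (0.988), IMPA2 (0.988), IFIT1 (0.985), NMI (0.985) and CD3E (0.984). IL2RB, LOC101112639 and CXCR6 reached the filter only through Prepuberty 1 and Postpuberty 3, which favours a place among these 10. ZNFX1, a helicase that senses double-stranded RNA, was at 14.1 FPKM in Prepuberty 1 and 17.1 in Postpuberty 3, beside 7.40 to 9.70 in the other 6 libraries. IFIT1, a relative of IFIT2 that binds viral RNA ends, was at 34.1 and 53.4 beside 3.64 to 13.9. IL2RG, the shared chain of several cytokine receptors of lymphocytes, was at 9.02 and 19.7 beside 0.372 to 1.97. CXCR6, a chemokine receptor of T and NK cells, was at 3.52 and 5.44 beside 0.161 to 0.681. Over the 6 libraries without Prepuberty 1 and Postpuberty 3, the r of these 10 genes with the mean z-score of the members was between 0.784 (CD3E) and 0.972 (LOC101112639). The 10 genes were chosen by their r over 8 libraries that include these 6, which favours a high r here.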

How the data were processed

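Poly(A) RNA of the hypothalamus of 9 ewes was sequenced as paired-end reads. The authors trimmed reads with Trimmomatic (0.32 in the submitters' processing notes, another version in the study's methods), aligned them to ARS-UI_Ramb_v3.0 with HISAT2 and assembled transcripts with StringTie. The deposited values, described as raw counts, are FPKM per transcript (115108 transcripts) and are not whole numbers, so no count test was run. Read counts and values corrected with RUVseq were not used here. FPKM hide the number of reads, so precision was taken from the spread between animals, and a difference was read against it.

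RefSeq identifiers matched genes for 76682 of 76684 NM_ and XM_ transcripts, and FPKM were summed per gene. Genes with a mean FPKM of at least 0.5 were kept (13696) and analysed as log2(FPKM + 1), without further scaling, with limma 3.58.1 (R 4.3.3, variance trend, all 9 libraries in 1 fit, tested on simulated data). Adjusted p-values cover all genes tested. Exact permutation tests were enumerated in Python 3.11.15 (scipy 1.17.1, numpy 2.4.6, pandas 2.3.3). Replicate numbers do not pair animals, and each library is 1 animal. Members, gene lists and tests were chosen with earlier results of these data known. The genes named were the members, up to 4 genes of each pathway list by mean FPKM, any list gene called, the 10 genes most like the members, and cell type markers. An adjustment over the members or their pairs alone had been planned and is not reported. List symbols without a RefSeq match (20 in the pathway lists) were not analysed here. Sequences are not printed.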

Additional observations from a re-analysis of the deposited data

How the results depend on the processing

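The number of the 8 genes called between stages was 0 in each comparison under all alternatives run (scaling by upper quartile, equal totals or quantiles, no filter, a filter at a mean FPKM of 1 or in at least 1 stage, pseudocounts of 0.1 and 0.5, only the 2 stages compared, robust or untrended variance, array quality weights, 1 factor from residuals, the highest transcript only, and each library left out). Over all genes, limma called 0 in the reported fits. With array quality weights it called 3, 1 and 0 genes (puberty minus prepuberty, postpuberty minus puberty and postpuberty minus prepuberty), and with 1 factor estimated from the residuals 166, 246 and 0. None of the 8 genes was among them, and their lowest adjusted p was 0.276. The factor was taken from what the stages left unexplained. It thus kept the differences as they were and reduced only the spread, which favours calls. The replicate number as a block gave 0 of the 8 genes in each comparison, and its lowest adjusted p was 0.797. The numbers do not pair animals, since each stage had its own ewes. The deviations of same-numbered libraries had an r between -0.317 and 0.518, which alone cannot settle whether libraries are paired. The exact test over the 3 stages passed 0 of the 8 genes, adjusted over all genes, in each setting run. Its smallest possible p of 0.00357 passes this adjustment only if many genes reach it, so little can be read from the adjusted outcome.

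The 1 gene without overlap between puberty and prepuberty (MX2) became 2 with equal totals (beside 4.64% of all genes) and with the highest transcript only (5.86%), where IRF7 was added. With single libraries left out the count was 1 to 3, the 3 (MX2, IRF7 and IFIT2) without Prepuberty 2, beside 14.3% of all genes, and 2 without Puberty 3, beside 15.5%. It was 0 to 1 between postpuberty and puberty (MX2 without Postpuberty 1, beside 13.7%) and 0 to 1 between postpuberty and prepuberty (IRF7 without Postpuberty 3, beside 11.3%). The median r of 0.930 became 0.833 with Spearman's rho, 0.901 with a pseudocount of 0.1 and 0.588 without the 2 libraries farthest from the median, an alternative chosen after seeing the data. With single libraries left out of the 8 it was 0.867 (without Postpuberty 3) to 0.953. The cause of these shifts was not tested. The filter over 7 libraries used for the pathway and lymphocyte genes was also chosen after seeing the data.

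Signs of differences that did not pass a test turned in these cases. With array quality weights IFIH1 was 0.05 between puberty and prepuberty, and between postpuberty and prepuberty ISG15 was 0.67, MX2 0.78, IFI6 0.07 and IRF7 0.21. In that last comparison RSAD2 was -0.12 and -0.01 and IFI44 -0.09 and -0.01 with pseudocounts of 0.1 and 0.5, and IFI44 was -0.03 with the highest transcript only. With each library left out in turn, the log2 differences ranged between puberty and prepuberty from -1.28 to 0.11 for ISG15 and -1.33 to 0.41 for IFI6. Between postpuberty and puberty they ranged from -0.47 to 1.31 for ISG15, -0.70 to 0.82 for IFI6, -0.25 to 1.22 for RSAD2, -0.01 to 1.23 for IFIH1, -0.34 to 1.22 for IRF7 and -0.24 to 1.01 for IFI44. Between postpuberty and prepuberty they ranged from -1.14 to 0.73 for ISG15, -1.15 to 0.71 for MX2, -1.17 to 0.59 for IFI6, -0.84 to 0.63 for RSAD2, -0.56 to 0.77 for IFIH1, -1.33 to 0.23 for IRF7, -0.71 to 0.53 for IFI44 and -0.45 to 0.40 for IFIT2. Depth cannot be read from FPKM, and with 3 animals a stage the spread between animals limits each comparison.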
